A study of Mus musculus with 4 samples.

Results

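The genes described here answer to glucocorticoids, the adrenal steroid hormones that in mice act chiefly as corticosterone. The 10 genes Nr3c1, Hsd11b1, Fkbp5, Tsc22d3, Mt1, Mt2, Errfi1, Zbtb16, Sgk1 and Tat were chosen by name, with earlier results of these data known, and all 10 were found among the 22180 genes measured, each on a single probe set. Gene expression was measured with Affymetrix whole-transcript arrays in epigonadal white adipose tissue, a visceral fat depot next to the testis, from male mice that had been fasted. There were 4 groups with 1 array each, and all of them carried floxed Irs1 and Irs2, which encode the insulin receptor substrates. The Irs1/2-flox control had these floxed genes without Cre, and LDKO mice had them with Albumin cre. In the Irs1/2:FoxO1-flox control the mice also carried floxed Foxo1, which encodes a transcription factor restrained by insulin, and LTKO mice carried the same floxed genes with Albumin cre. The albumin promoter directs Cre to hepatocytes, so the deletions are made in liver, and the fat studied here is a tissue that receives signals from it. Mice of both Cre lines were 4 months old. For the age of the controls, the hour of collection, the length of the fast and the number of mice behind an array, nothing is given in the sources used here.

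Glucocorticoids enter cells freely, and 11β-hydroxysteroid dehydrogenase type 1, the product of Hsd11b1, regenerates active hormone from its inactive form inside fat cells. The hormone binds the glucocorticoid receptor, encoded by Nr3c1, which then leaves its chaperones, moves to the nucleus and binds DNA. In white fat glucocorticoids promote adipocyte differentiation, oppose insulin and, during fasting, favour the release of fatty acids. Several targets limit the signal itself, among them Fkbp5, and others serve as common readouts of receptor activity.

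Values are log2 signals, a difference of 1 is 2-fold, and differences are Cre line minus control. With 1 array per group there was no test and no standard error, and how precise any value is cannot be told from so few arrays. A gene counted as 2-fold apart only where its highest array in the comparison reached 5.15, the level of the median gene. In whole tissue, fewer cells of a type and less RNA per cell cannot be told apart. Of 16 adipocyte markers 15 were measured, all 15 reached the median gene, and their mean level lay between 11.05 and 11.24 in the 4 arrays, so the tissue label was matched by its markers. Irs1, Irs2 and Foxo1 were detected in all 4 arrays of this tissue, although levels in fat say nothing of a deletion in hepatocytes, with Irs2 between 7.62 and 7.96 and Foxo1 between 8.02 and 8.37. Irs1 ranged from 6.96 in the Irs1/2-flox control to 7.86 in the Irs1/2:FoxO1-flox control.

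The glucocorticoid-responsive genes were mostly lower in LDKO fat than in its control and mostly a little higher in LTKO fat than in its own. In LDKO 9 of the 10 genes were lower than in the Irs1/2-flox control, with a median difference of −0.63 against −0.05 over all 11533 genes past the filter, and 56.7% of those genes were lower. Errfi1 and Tat were at least 2-fold lower, as were 0.624% of all genes, and none of the 10 was 2-fold higher, as were 0.572%. In LTKO 7 of the 10 were higher than in the Irs1/2:FoxO1-flox control, with a median of 0.19 against −0.03 over all genes, and 42.8% of all genes were higher. Tat passed 2-fold upward in LTKO, as 1.73% of all genes did, and none of the 10 passed it downward, as 0.0434% did.

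The Irs1/2-flox control array held the highest value for 6 of the 10 genes, and 23.9% of all genes were highest there. The Irs1/2:FoxO1-flox control was lower than the Irs1/2-flox control at 8 of the 10 genes, by a median of −0.39, although neither carried Cre, and 44.5% of all genes were lower. None of the 10 was 2-fold apart between the controls, where 0.77% of all genes were. Against the Irs1/2:FoxO1-flox control LDKO was lower at 7 of the 10 genes, by a median of −0.26 against −0.07 over all genes, 60.2% of which were lower, and none of the 10 was 2-fold apart (1.31% of all genes were). Against the Irs1/2-flox control LTKO was lower at 8 of the 10, by a median of −0.15, which is the opposite direction to its own control, and none was 2-fold apart (1.24% of all genes were), while 48.1% of all genes were lower.

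LDKO lay below both controls at 7 of the 10 genes, namely Hsd11b1, Fkbp5, Mt1, Mt2, Errfi1, Zbtb16 and Tat, and 43.7% of all 11958 genes did so. For these 7 genes LDKO was also the lowest of the 4 arrays, as it was for 37.4% of all genes. LTKO lay above both controls at Fkbp5 and Tat (28.1% of all genes did), below both at Nr3c1, Hsd11b1 and Zbtb16 (33.4% did), and between them at the other 5 genes, which is near the shares over all genes.

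**Figure D1:**
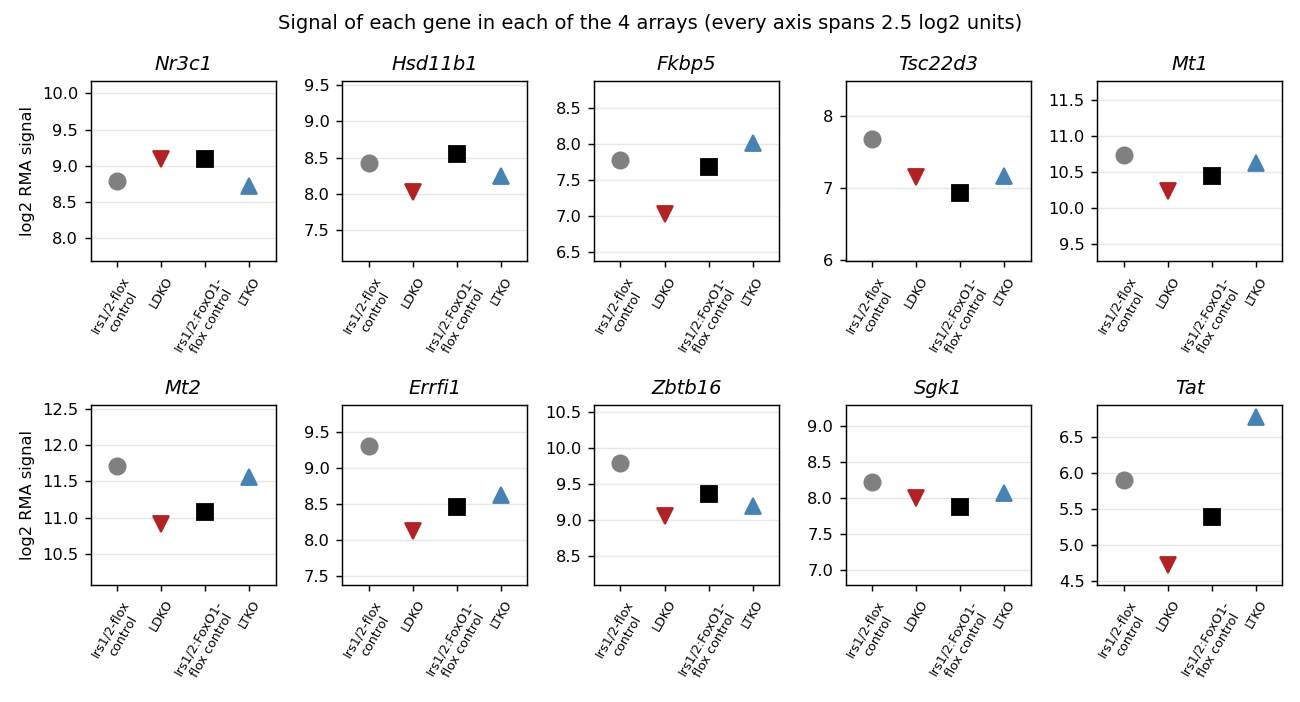
Log2 RMA signal (vertical axis) of each of the 10 genes in the 4 arrays (horizontal axis), 1 point per array and no error bars, since each group has 1 array. LDKO is the lowest array for 7 genes, and Tat has the widest range, from 4.72 in LDKO to 6.77 in LTKO.

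The first pair of genes sets how much hormone the fat cell can sense. Nr3c1 read 9.10 in LDKO and 8.71 in LTKO, with the Irs1/2-flox control at 8.79 and the Irs1/2:FoxO1-flox control at 9.09. The receptor gene was the only one of the 10 with a higher value in LDKO than in its control, by 0.31, and that difference was 0.01 against the other control. In LTKO it was lower than its own control by −0.38 and lower than the other control by −0.07, so its arrays formed a high pair and a low pair that each held a control and a Cre line. Hsd11b1 read 8.03 in LDKO and 8.25 in LTKO, with the Irs1/2-flox control at 8.42 and the Irs1/2:FoxO1-flox control at 8.55. Both Cre lines lay below both controls for this gene, LDKO by −0.39 and −0.52 and LTKO by −0.30 and −0.17, its own control first for each. These differences were modest, since 16.9% of all genes lay at least as far from 0 as Hsd11b1 did in LDKO against its own control.

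Fkbp5 encodes a co-chaperone that lowers the receptor's affinity for hormone, and its strong induction by glucocorticoids forms a short feedback loop. It read 7.03 in LDKO and 8.00 in LTKO, with the Irs1/2-flox control at 7.77 and the Irs1/2:FoxO1-flox control at 7.68. The controls were 0.09 apart, LDKO stood below both of them, and LTKO stood above both. The LDKO difference was −0.74 against its own control, a 1.67-fold lower signal, and −0.65 against the other, while that of LTKO was 0.33 and 0.24. Among all genes 3.35% lay at least as far from 0 in LDKO against its own control and 5.11% against the other. Of the 10 genes, Fkbp5 had the LDKO value that depended least on the choice of control.

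Tsc22d3 encodes GILZ, a leucine zipper protein through which glucocorticoids dampen inflammatory signalling. It read 7.15 in LDKO and 7.17 in LTKO, with the Irs1/2-flox control at 7.68 and the Irs1/2:FoxO1-flox control at 6.94. The Irs1/2-flox control alone was high, and the other 3 arrays were within 0.23 of one another. Its LDKO difference therefore changed sign with the control, from −0.53 to 0.21, and so did its LTKO difference, from 0.23 to −0.51. Zbtb16 encodes PLZF, a zinc finger repressor of transcription that glucocorticoids induce in many cells. It read 9.05 in LDKO and 9.19 in LTKO, with the Irs1/2-flox control at 9.79 and the Irs1/2:FoxO1-flox control at 9.36. Both Cre lines were below both controls, LDKO by −0.74 and −0.31 and LTKO by −0.17 and −0.61, its own control first for each.

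Errfi1 and Sgk1 act in kinase signalling. Errfi1 encodes Mig6, an inhibitor of the EGF receptor, and read 8.13 in LDKO and 8.62 in LTKO, with the Irs1/2-flox control at 9.30 and the Irs1/2:FoxO1-flox control at 8.45. The Irs1/2-flox control stood apart at the top and the other 3 arrays were within 0.49 of one another. LDKO was 2.25-fold lower than its own control (−1.17), a size that 0.711% of all genes reached, and −0.32 from the other control, a size that 27.3% reached. LTKO was higher than its own control by 0.16 and lower than the other by −0.68. Sgk1 encodes a serum- and glucocorticoid-regulated kinase that promotes sodium transport, and read 8.00 in LDKO and 8.07 in LTKO, with the Irs1/2-flox control at 8.22 and the Irs1/2:FoxO1-flox control at 7.87. Its 4 arrays spanned 0.35, the narrowest range of the 10 genes, and both Cre lines lay between the controls.

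Mt1 and Mt2 encode metallothioneins, small cysteine-rich proteins that bind zinc and copper and are induced by glucocorticoids as well as by metals. They are similar paralogs, so some of their signal may be shared. Mt2 read 10.90 in LDKO and 11.56 in LTKO, with the Irs1/2-flox control at 11.72 and the Irs1/2:FoxO1-flox control at 11.07, and for Mt1 these 4 values were 10.24, 10.62, 10.74 and 10.45. The order of the arrays was the same for both genes, with LDKO lowest, then the Irs1/2:FoxO1-flox control, LTKO and the Irs1/2-flox control. Mt2 differed by −0.81 in LDKO and 0.49 in LTKO, each against its own control, and by −0.17 and −0.16 against the other control. Mt1 differed by −0.49 and 0.17 against the own controls and by −0.20 and −0.11 against the other. Toward the Irs1/2-flox control both Cre lines were therefore lower for both genes, and toward the Irs1/2:FoxO1-flox control LDKO was lower and LTKO higher.

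Tat encodes tyrosine aminotransferase, a classic glucocorticoid-induced enzyme of the liver that begins the breakdown of tyrosine. It read 4.72 in LDKO and 6.77 in LTKO, with the Irs1/2-flox control at 5.91 and the Irs1/2:FoxO1-flox control at 5.39. LDKO was below both controls and LTKO above both, and the LDKO value lay under the level of the median gene, where RMA signals compress differences. The LDKO difference was −1.18 against its own control and −0.66 against the other, and that of LTKO was 1.39 and 0.87. LTKO was 4.14-fold above LDKO directly, a distance that 0.206% of all genes reached. Liver transcripts moved with it in the LTKO array. All 14 hepatocyte markers listed were measured, their mean level was 4.98 in LDKO and 6.26 in LTKO, with the Irs1/2-flox control at 5.08 and the Irs1/2:FoxO1-flox control at 4.93. The summed hepatocyte signal, carried mostly by Cyp2e1 at 13.04 to 13.14 in every array, was 9952 in LTKO and 9015 to 9398 elsewhere. Albumin (Alb) read 9.82 in LTKO and 6.93 to 7.70 elsewhere, and Hpd, the next enzyme of tyrosine breakdown, read 6.02 in LTKO and 5.08 to 5.68 elsewhere. The mean level of 11 measured epididymis markers was 5.28 in LTKO and 3.73 to 3.81 elsewhere, and that of 9 sperm and spermatid markers was 6.09 in LTKO and 4.44 to 4.52 elsewhere. The part of liver transcripts in the Tat value was not tested.

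**Figure D2:**
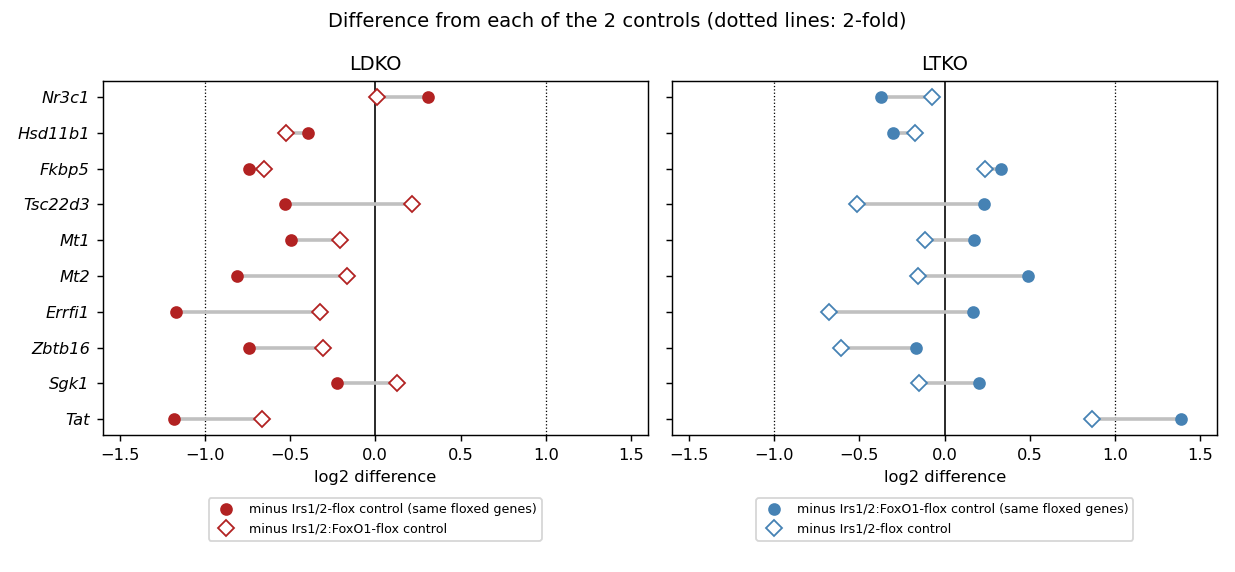
Log2 difference (horizontal axis) of LDKO (left) and LTKO (right) from each control for the 10 genes. Filled circles are the control with the same floxed genes, open diamonds the other control, and a bar joins the pair. The bars of Fkbp5 and Hsd11b1 are short, and those of Errfi1, Tsc22d3 and Mt2 are long, at 0.85, 0.74 and 0.65.

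Set side by side, Fkbp5, Tsc22d3, Mt1, Mt2, Errfi1, Sgk1 and Tat were below the own control in LDKO and above it in LTKO, 7 of the 10, while 24.8% of all genes had this pattern. Hsd11b1 and Zbtb16 were below the own control in both lines, and Nr3c1 was above it in LDKO and below it in LTKO. The LTKO difference minus the LDKO difference was above 0 for 9 of the 10 genes, with a median of 0.71 against 0.02 over all genes. The share of all genes above 0 was not counted here. This difference of effects reached 2-fold at 4 genes, Tat (2.57), Errfi1 (1.33), Mt2 (1.30) and Fkbp5 (1.07), and 2.93% of all genes were as far apart in that direction. With LTKO set directly against LDKO, without the controls, 9 of the 10 genes were again higher in LTKO, by a median of 0.30, and 57.4% of all genes were higher. Only Tat was 2-fold apart in that direct comparison, where 1.51% of all genes were 2-fold higher in LTKO. Fkbp5 was close to that size at 0.98, Mt2 and Errfi1 were at 0.66 and 0.49, and Tsc22d3 was at 0.01. The direct values hold any difference between the floxed lines, and the difference of effects holds the difference between the controls.

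**Figure D3:**
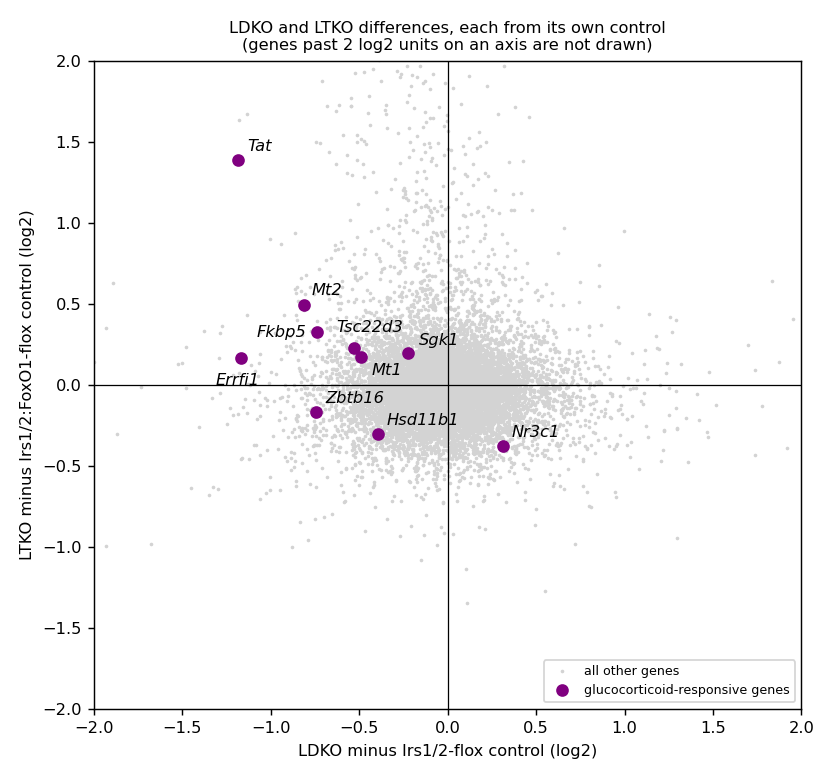
LDKO minus the Irs1/2-flox control (horizontal axis, log2) against LTKO minus the Irs1/2:FoxO1-flox control (vertical axis, log2), 1 point per gene that reached the median gene, with the 10 glucocorticoid-responsive genes in purple. There are 7 of them in the upper left part, with Tat farthest out at −1.18 and 1.39.

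Promoters of 8 of the 10 genes, 16 in all because some genes have several starts, were searched in the RefSeq sequences of build GRCm38.p6, in the 250 bases before each start and on both strands. Nr3c1 was set aside by a rule of the search and Zbtb16 had no promoter in the set, so the counts leave out both genes. The glucocorticoid response element was sought as GNACA followed by any 3 bases and by TGTNC, where N is any base, an inverted repeat that reads alike on both strands. It was found in 2 of the 16, at Mt1 and at 1 start of Sgk1, and in 0.387% of 32851 promoters of the same length. The shorter element TGTTCT, which can overlap the longer one, was in 4 of the 16 and in 16.1% of all promoters. These were 3 of the 6 starts of Sgk1 and 1 of the 3 starts of Tsc22d3, so the 4 are not separate genes. Metal response elements, bound by the zinc sensor Mtf1, were sought as TGCACNC (10.4% of all promoters) and TGCGCNC (12.5%). Mt2 held both kinds and Mt1 and Hsd11b1 held TGCACNC. A match is a description of the letters and not a shown site of binding.

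The metallothionein and Sgk1 sequences are shown because they hold these elements, with matches to the glucocorticoid response element, and in Mt1 and Mt2 also to the metal response elements, in capitals. They lie on the plus strand at chr8:94178839-94179088 for Mt1, chr8:94172368-94172617 for Mt2 and chr10:21993640-21993889 for Sgk1, and each ends at the base before the start.
Mt1: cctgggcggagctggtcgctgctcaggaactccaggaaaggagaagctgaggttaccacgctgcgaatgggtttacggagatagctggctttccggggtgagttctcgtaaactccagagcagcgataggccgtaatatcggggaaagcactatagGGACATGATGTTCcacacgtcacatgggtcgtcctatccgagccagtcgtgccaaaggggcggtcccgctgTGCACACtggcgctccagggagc
Mt2: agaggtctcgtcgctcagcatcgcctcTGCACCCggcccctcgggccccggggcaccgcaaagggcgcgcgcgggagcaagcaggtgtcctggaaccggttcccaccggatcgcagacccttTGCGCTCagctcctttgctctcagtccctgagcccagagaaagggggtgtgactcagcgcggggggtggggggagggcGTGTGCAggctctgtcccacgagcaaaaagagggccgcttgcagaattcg
Sgk1: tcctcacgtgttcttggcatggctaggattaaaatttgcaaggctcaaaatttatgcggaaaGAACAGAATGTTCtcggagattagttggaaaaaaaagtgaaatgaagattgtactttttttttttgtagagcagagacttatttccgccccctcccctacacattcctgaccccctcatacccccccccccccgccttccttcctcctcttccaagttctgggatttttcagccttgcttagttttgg
In Mt1 the element GGACATGATGTTC begins 94 bases before the start and TGCACAC begins 23 bases before it. In Mt2 the metal response elements begin 223, 128 and 50 bases before the start, the last of them on the minus strand. In Sgk1 the element GAACAGAATGTTC begins 188 bases before the start. Mt2 had no match to the glucocorticoid response element in this window. Any link between these elements and the array values was not tested.

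The rest of the pathway was read from gene lists. Of 48 other genes that glucocorticoids induce in various cells, 47 were measured and 44 reached the median gene. In LDKO 36 of these 44 were lower than in the Irs1/2-flox control, where 56.7% of all genes were, with a median of −0.38. Of the 44, 3 were 2-fold lower, as were 0.624% of all genes, and 1 was 2-fold higher, as were 0.572%. The 3 were Ddit4 (−1.48), an inhibitor of mTORC1 signalling, Gadd45g (−1.30), a stress-response gene, and Sdc4 (−1.13), a cell-surface proteoglycan, and the 1 was the acute phase protein Orm1 at 1.11. Against the Irs1/2:FoxO1-flox control 29 of the 44 were lower, close to the 60.2% of all genes, with a median of −0.27 against −0.07 over all genes. Ddit4 (−1.36), Gadd45g (−1.30) and Orm1 (1.04) were again 2-fold apart, where 1.31% of all genes were. At the lower size of 1.5-fold, Pdk4, Fam107a, Cebpd, Ddit4, Fbxo32, Arrdc2, Gadd45g and Sdc4 were lower in LDKO against both controls, 8 of 44, and 1.46% of all genes were. Ddit4 read 6.83 in LDKO and 8.43 in LTKO, with the Irs1/2-flox control at 8.31 and the Irs1/2:FoxO1-flox control at 8.19, so that LDKO alone was low, as it was for Fkbp5. In LTKO the same list was split, with 23 genes above and 21 below the own control, where 42.8% of all genes were above. The median was 0.03 and none was 2-fold apart, where 1.78% of all genes were, though Rgs2 fell just short at −0.9997. Against the Irs1/2-flox control 27 of the 44 were lower in LTKO, where 48.1% of all genes were, with a median of −0.11. Saa3 (−1.41) and Rgs2 (−1.33) were 2-fold lower there, as were 0.405% of all genes. Some of these genes, such as Fbxo32, Pdk4 and Pck1, also answer to fasting and to FoxO factors, and Irs2 is on the list as well as being a floxed gene.

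**Figure D4:**
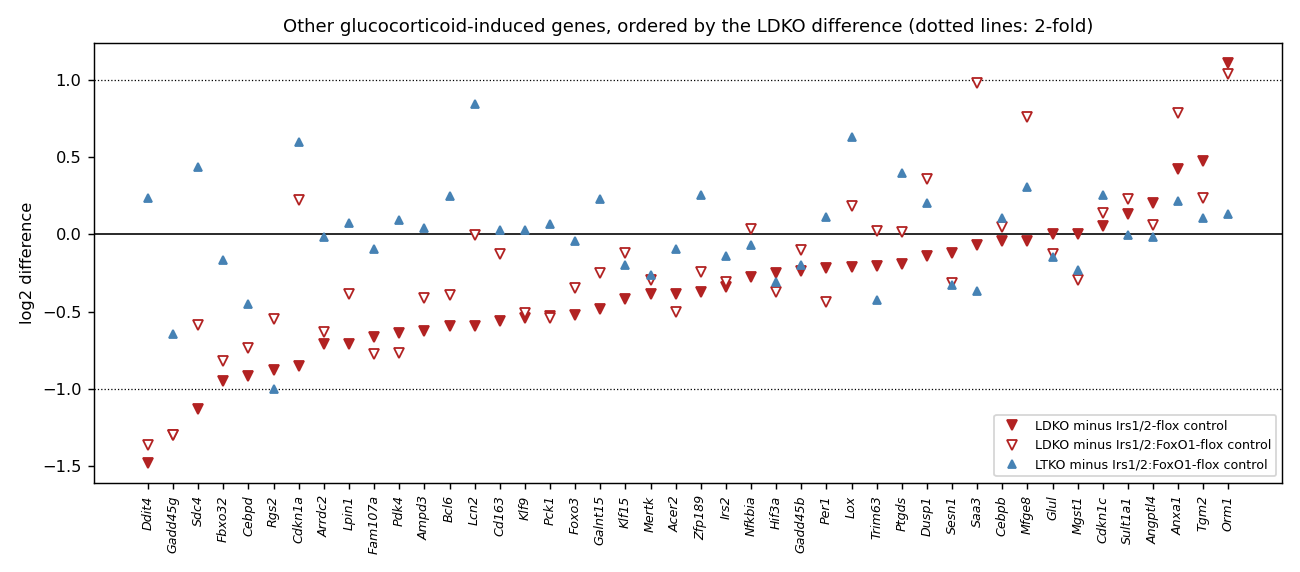
Log2 difference (vertical axis) of the 44 other glucocorticoid-induced genes that reached the median gene, ordered from left to right by the LDKO difference from the Irs1/2-flox control (filled red). Open red is LDKO minus the Irs1/2:FoxO1-flox control and blue is LTKO minus the Irs1/2:FoxO1-flox control, and 36 of the 44 filled red points lie below 0.

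The receptor's chaperones and cofactors were close to all genes. Of 23 that reached the median gene, 14 were lower in LDKO and 16 in LTKO against the own control, where 56.7% and 57.1% of all genes were. The medians were −0.09 and −0.05, and none was 2-fold apart. Besides Fkbp5, the farthest were the heat shock protein gene Hspa1a (−0.65 in LDKO, −0.39 in LTKO) and the coactivator gene Ncoa1 (−0.54 and −0.19). Against the other control Hspa1a differed by −0.07 in LDKO and −0.97 in LTKO, and Ncoa1 by −0.46 and −0.26. Among 8 genes of local steroid supply, with Hsd11b1 counted, the medians were −0.09 and −0.15, and the farthest was Hsd17b12, an enzyme of fatty acid elongation, at 0.75 in LDKO. Of 8 adrenal cortex markers, all measured, 2 reached the median gene, the ACTH receptor gene Mc2r (7.93 to 8.29), which adipocytes also express, and Star (4.81 to 5.27), while the steroid synthesis genes Cyp11b1 and Cyp11b2 were at or under 3.50 in every array. Of the genes that glucocorticoids repress, 5 of 22 reached the median gene, the medians were −0.01 in LDKO and −0.05 in LTKO, and none was 2-fold apart. That leaves most of the cytokine genes on it, such as Il6 and Tnf, under the level at which differences were read.

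Around single members, the 12 genes of the metal response list, with Mt1 and Mt2 counted, had medians of −0.17 in LDKO and 0.19 in LTKO, each against its own control, with 11 of them lower in LDKO (56.7% of all genes were) and 9 higher in LTKO (42.8% were). Against the other control 6 were higher and 6 lower in each line, with medians of 0.01 and 0.04. The zinc importer gene Slc39a8 differed by −0.63 in LDKO and 0.27 in LTKO, and by −1.36 between the controls. Of 10 genes of the EGF receptor family and its regulators 9 were lower in LDKO than in its own control, where 56.7% of all genes were. The receptor gene Egfr was at −0.56 and Errfi1 was the only one 2-fold lower, as were 0.624% of all genes. Against the other control, however, 4 of the 10 were lower in LDKO and 6 higher (median 0.03). Erbb3 was higher by 0.97 in LTKO against its own control and by 0.41 against the other. In the list with Sgk1 and the epithelial sodium channel, Scnn1a differed by −0.63 in LDKO and 1.37 in LTKO. It was the 1 gene of 7 that was 2-fold apart from its own control in LTKO, where 1.78% of all genes were. Against the other control Scnn1a differed by 0.15 in LDKO, the opposite direction, and by 0.59 in LTKO, under 2-fold. Among 11 genes of amino acid breakdown, Tat was the only one 2-fold lower in LDKO, as were 0.624% of all genes. The alanine aminotransferase gene Gpt was 2-fold higher, by 1.74, as were 0.572%. In LTKO Tat was the only one of the 11 that was 2-fold apart, where 1.78% of all genes were. The Tsc22 and zinc finger list had medians of −0.11 and 0.05 over 10 genes, with Bcl6, a repressor of transcription, at −0.60 and 0.25.

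Immediate early genes, which answer to handling and stress as well as to hormones, had a median of −0.27 over 19 genes in LDKO and 0.22 over 18 in LTKO against the own controls. Their median was −0.45 between the controls, where the Irs1/2:FoxO1-flox control was lower at 17 of 18 (44.5% of all genes were), and it was 0.17 for LDKO against that control. Nr4a3 differed by −1.48 in LDKO against its own control and by −0.47 against the other, and Fosl2 by −0.91 and −0.35.

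Markers of other cells also differed between the arrays, not always in the pattern of the 10 genes. Of 18 macrophage markers, all of which reached the median gene, 15 were lower in LDKO against its own control (median −0.30), where 56.7% of all genes were. Against the other control 13 were lower in LDKO (−0.17), where 60.2% of all genes were. In LTKO 17 were lower against its own control (−0.31), where 57.1% of all genes were. The list shares Cd163 with the glucocorticoid-induced list. Their summed signal on the linear scale was 5381 in LDKO and 4876 in LTKO, with the Irs1/2-flox control at 7311 and the Irs1/2:FoxO1-flox control at 5877. Mesothelial markers summed to 3483 in the Irs1/2-flox control and to between 2147 and 2381 in the other arrays. In LDKO 13 of the 14 were lower than in its own control, where 56.7% of all genes were (median −0.58, against −0.08 with the other control). The summed signal of 13 skeletal muscle markers, all measured, was 1192 in the Irs1/2-flox control and between 545 and 675 elsewhere. Of 15 adipocyte markers 12 were higher in LDKO than in its own control (median 0.08), where 43.2% of all genes were higher. With the other control 8 were higher (median 0.06), where 39.8% of all genes were. Of 10 endothelial markers 7 were higher in LDKO than in its own control (43.2% of all genes were) and 4 than in the other (39.8% were). Of 4 lymphocyte markers that reached the median gene, 3 were higher in LDKO than in its own control, where 43.2% of all genes were. Against the other control 3 were also higher, but not the same 3, where 39.8% of all genes were. Nkg7 differed by 0.24 and −0.20 and Ptprc by −0.05 and 0.49, the own control first for each. The part of these cells in the values of the 10 genes was not tested.

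Genes with a profile like that of the 10 were sought by the root mean square distance between log2 values centred on each gene's mean, over 4 arrays. Among 10279 genes at or above the median level, Zfp182 (0.02), Zmiz1 (0.03) and Nap1l1 (0.04) were closest to the mean profile of the 10, and 238 genes lay within 0.1 of it. Closest to Fkbp5 were Ift81 (0.04), Zfp704 (0.04) and the smooth muscle actin gene Acta2 (0.05), and closest to Tsc22d3 were Mapkapk3 (0.02), Anp32b (0.02) and Pdlim1 (0.03). Of the same 10279 genes, 21 lay within 0.1 of Fkbp5 and 29 within 0.1 of Tsc22d3. Likeness over 4 arrays, without replicates, is a description only. Acta2 read 9.36 in LDKO and 10.36 in LTKO, with the Irs1/2-flox control at 10.23 and the Irs1/2:FoxO1-flox control at 10.09. Of 8 smooth muscle and pericyte markers 7 were lower in LDKO against its own control (median −0.29), where 56.7% of all genes were. Against the other control 7 of the 8 were also lower in LDKO (median −0.64), where 60.2% of all genes were.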

How the data were processed

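RNA of epigonadal fat was labelled with biotin and hybridised to 4 arrays, 1 per group, per the labels' protocols. The authors deposited log2 signals for each probe set, made in Affymetrix Expression Console by RMA, per the submitters' processing notes, a method that corrects background, equalises the distributions of arrays and summarises probes. RMA compresses differences between dim signals. Of 41345 probe sets, 23521 have 1 gene symbol, and 23328 of those were matched by gene identifier and given the GRCm38.p6 name, changed or not. A gene was its probe set with the highest mean over the 4 arrays, and each of the 10 genes had 1 probe set.

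Groups came from the source names in the labels. Differences were read by size, at least 2-fold, among genes that reached the level of the median gene in at least 1 array compared. All 10 genes, Irs1, Irs2, Foxo1 and up to 3 genes per list by size of difference were named, with 3 look-alikes per profile; genes named beyond these were chosen after their values were seen. The members and lists were chosen with earlier results of these data known. The counting was tested on simulated data. Python 3.11.15, numpy 2.4.6, pandas 2.3.3 and statsmodels 0.14.6 were used.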

Additional observations from a re-analysis of the deposited data

Results flagged for a closer look

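At 4 of the 10 genes LDKO was below and LTKO above its own control, with the effects at least 2-fold apart. The LTKO difference minus the LDKO difference was 2.57 for Tat, 1.33 for Errfi1, 1.30 for Mt2 and 1.07 for Fkbp5. With 1 array per group the difference between the lines was not tested. With LTKO set directly against LDKO the values were 2.05 for Tat, 0.49 for Errfi1, 0.66 for Mt2 and 0.98 for Fkbp5. Errfi1 and Mt2 differed by −0.85 and −0.65 between the controls, and Fkbp5 by −0.09.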

How the results depend on the processing

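The reference array and the size threshold both moved the counts. Of the 10 genes, 10 kept the sign of their difference in LDKO and in LTKO with the mean of all probes, with quantile normalization again and with a loess curve removed, the first of which leaves genes with 1 probe set as they are. With the mean of both controls as reference 10 kept it in LDKO and 8 in LTKO, and with the other control 8 kept it in LDKO and 5 in LTKO. With the other control the signs of Tsc22d3 and Sgk1 changed in both lines, and those of Mt1, Mt2 and Errfi1 in LTKO. In LDKO, 2 genes were 2-fold apart from the own control, 0 with the mean of both controls, 0 with the other control, 5 at a threshold of 1.5-fold and 0 at 3-fold. Of all genes 1.2% were 2-fold apart from the own control, 1.31% from the other control, and 6.74% and 0.26% at 1.5-fold and 3-fold from the own control. In LTKO, 1 gene was 2-fold apart, 0 with the other control and 0 at 3-fold, where 1.78%, 1.24% and 0.668% of all genes were. The median over the 10 genes was −0.26 in LDKO and −0.15 in LTKO with the other control. The cause was not tested. A shift was taken as small where it was under 0.29, the SD of the difference between the controls over all genes past the filter. No paired analysis was possible because each group has 1 array. Signal near the background limits Tat most.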
